A study of Mus musculus with 6 samples.

Results

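The genes described here are the measured mouse genes whose symbol is Clec followed by a digit, the Clec family of C-type lectin domain genes. They numbered 32 of the 25206 genes in the table, and each was followed across 6 arrays of alveolar macrophages, which patrol the airspaces of the lung. There were 3 arrays from Zcchc6+/+ mice and 3 from Zcchc6-/- mice, with cells taken by bronchoalveolar lavage under basal conditions. Zcchc6 encodes a terminal uridyltransferase, an enzyme that adds uridines to the ends of RNAs. The Zcchc6-/- mice carried a germline deletion of a pair of exons in all tissues. It came from a floxed allele crossed to EIIa-cre mice, with the Cre then bred away and heterozygotes intercrossed, so the macrophages were not the only cells that lacked the gene. The wildtype arrays serve as the controls. The mice were young adults of both sexes, and the labels give no sex for an array.

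C-type lectins share a folded domain that in many members binds sugars, lipids or proteins on microbes, dying cells and other host cells. Several receptors of the Dectin-1 and Dectin-2 groups start signalling through the kinase Syk. They use either a tyrosine motif of their own (a hemITAM) or the adaptors Fcer1g and Tyrobp, which carry an ITAM. The adaptor protein Card9 then links Syk to NF-κB. Receptors with an ITIM, the inhibitory tyrosine motif, recruit phosphatases that restrain such signals. Alveolar macrophages are known for Dectin-1, with which they take up fungal particles. Not every symbol of the family stands for a lectin of this kind, since Clec16a encodes an intracellular protein of mitophagy without the lectin domain.

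The deposited values are log2 signals, 1 per gene and array, normalised together by the Robust Multiarray Average (RMA). Array medians lay between 4.36 and 4.45, and arrays correlated at 0.979 to 0.993 across genes. Zcchc6 itself read 8.72, 8.77 and 8.65 in Zcchc6+/+ against 8.22, 7.69 and 8.13 in Zcchc6-/- arrays, without overlap. Its log2 fold change was -0.70 (SE 0.15, limma adjusted p = 0.774, SE being the standard error). Of the alveolar macrophage markers measured, 17 of 17 lay above the low-signal reference described below, with wildtype means from 8.54 to 12.15. Zcchc6+/+ replicate 1 and Zcchc6-/- replicate 2 had low Xist, the RNA of the inactive X chromosome, at 3.78 and 3.27 against 10.04 to 10.73 in the other 4 arrays. Zcchc6-/- replicate 1 stood apart by T cell markers, whose mean deviated from the wildtype mean by 2.90, against -0.28 and -0.16 in the other Zcchc6-/- arrays. The methods name no sorting step after lavage. In such bulk RNA, fewer cells of a type and less RNA per cell cannot be told apart. The labels do not say that numbered replicates are different mice. The p-values therefore reflect only how much these samples varied, and part of that may be technical.

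In wildtype macrophages, 18 of the 32 Clec genes gave a signal above 4.34, the 95th percentile of 1354 olfactory and vomeronasal receptor genes, which served as a reference for low signal. The same number lay above the median of the table, 4.40, as a mean of all 6 arrays. The probes of different genes differ, so the signals show which genes stand clear of the reference and not which transcript is more abundant. Among receptors that signal through Syk, 8 of 9 lay above the median. Clec7a, which encodes the β-glucan receptor Dectin-1, read 10.84, 10.92 and 10.86 in the wildtype arrays, and Clec4n, which encodes the mannan receptor Dectin-2, read 10.18, 9.94 and 10.08. Clec4b2, related to the activating receptor DCAR, was the exception, with a wildtype mean of 2.49. Both genes close to the inhibitory receptor Dcir but lacking its ITIM were above the median, Clec4a3 with a wildtype mean of 9.88 and Clec4a1 with 5.17. Of the 4 ITIM receptors, Clec12a (8.04) and Clec4a2 (6.20) were above it, while Clec4a4 (3.18) and Clec12b (2.47) were not.

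Other roles, apart from the Clec2 group, lay mostly at or below the reference. All 3 uptake receptors, Clec10a, the Kupffer cell receptor Clec4f and Clec4g of the liver sinusoid, had wildtype means between 3.17 and 4.17. The endothelial receptors Clec14a and Clec1a were at 2.98 and 4.01. Clec2d, which encodes a ligand of the inhibitory natural killer (NK) cell receptor Klrb1b, had a wildtype mean of 9.84, whereas the other 6 measured genes of the Clec2 group lay between 2.27 and 4.93. Of these, Clec2i (4.93), Clec2m (4.51) and Clec2l (4.47) were above the reference and the median. Of the 4 secreted or matrix proteins only Clec18a, at 4.94, was above the median, and Clec3b (tetranectin), Clec11a and Clec3a were not. The mitophagy gene Clec16a was at 8.19.

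**Figure D1:**
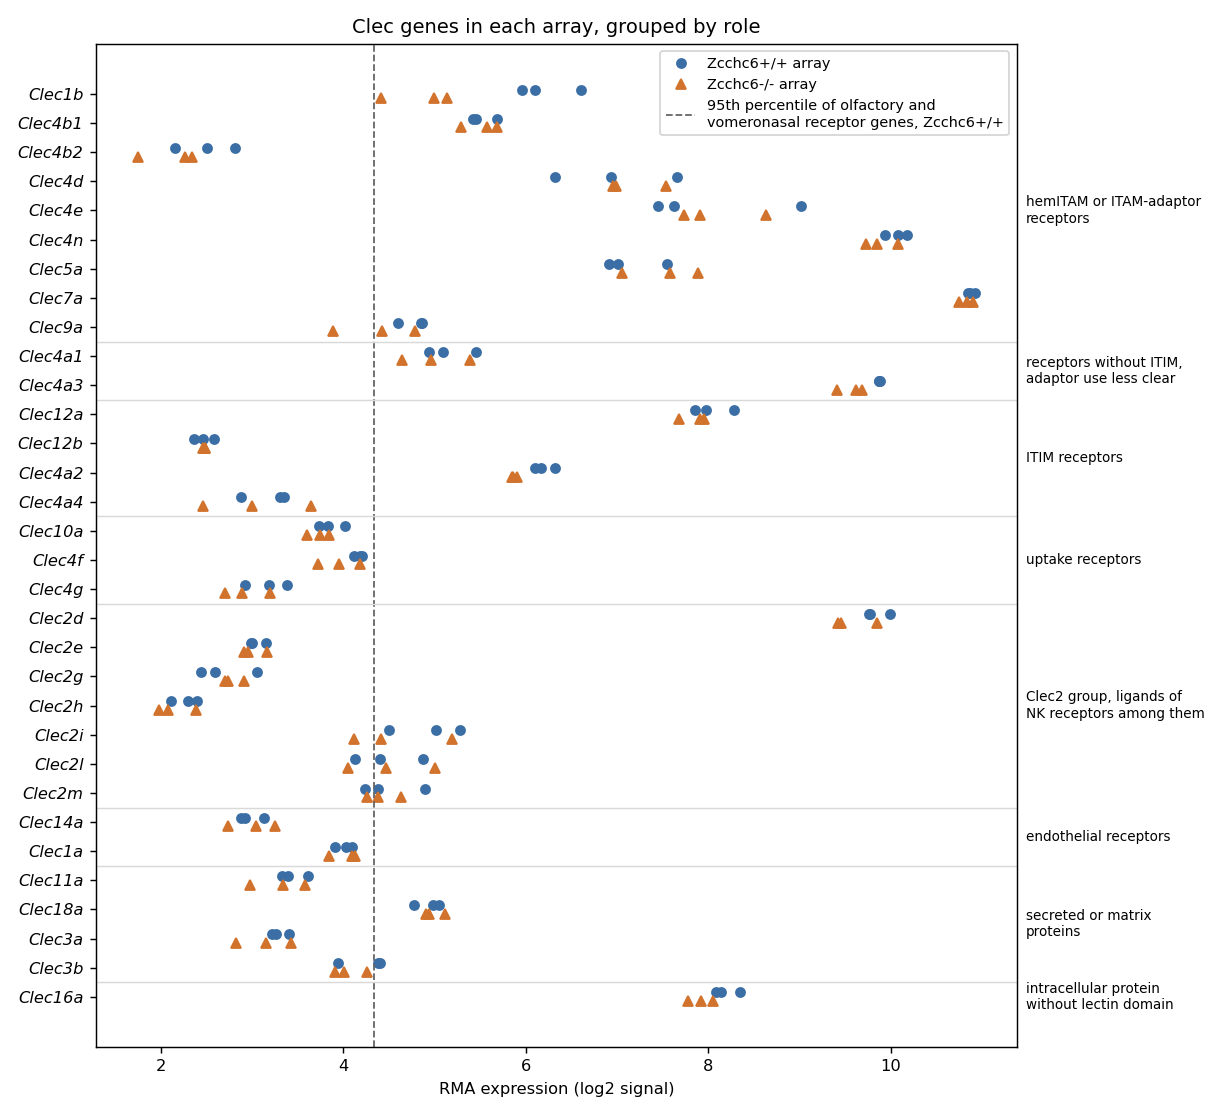
RMA log2 signal (x axis) of each of the 32 Clec genes (y axis, grouped by role as named at the right) in every array, with circles for the 3 Zcchc6+/+ and triangles for the 3 Zcchc6-/- arrays, and a dashed line at 4.34, the 95th percentile of olfactory and vomeronasal receptor genes. Clec7a, Clec4n, Clec4a3 and Clec2d lie far to the right of the line in all 6 arrays, and the triangles of Clec1b lie to the left of its circles.

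The genotype comparison asked which of these genes differed between Zcchc6-/- and Zcchc6+/+ macrophages. With limma and adjustment over all genes, 0 of the 32 Clec genes had an adjusted p under 0.05, and 0% of all 25206 genes did. The lowest adjusted p of the family was 0.610, that of Clec1b. At an unadjusted p under 0.05 there were 3 Clec genes, Clec1b, Clec4a2 and Clec4a3, all with a lower mean in Zcchc6-/- macrophages, or 9.4% of the family. Over all genes, 2.53% had such a p with a lower mean and 2.5% with a higher mean. At this p, 638 genes of the whole table were lower and 630 higher. Leaving out Zcchc6-/- replicate 1 raised the Clec count to 8, with 768 lower and 735 higher over the whole table. Leaving out Zcchc6+/+ replicate 3 lowered the Clec count to 1, with 524 and 504 over the whole table. It was 2 without Zcchc6+/+ replicate 1 (475 and 472) and 2 without Zcchc6-/- replicate 3 (831 and 662). For 4 genes, those 3 and Clec16a, no Zcchc6-/- array reached into the range of the Zcchc6+/+ arrays, and again all had a lower mean. This is 12.5% of the family, against 5.15% of all genes without overlap and lower, and 5.03% without overlap and higher. In the design of 3 arrays against 3, an exact permutation test cannot give a p below 0.1.

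A lower mean in Zcchc6-/- macrophages was found for 23 of the 32 Clec genes, where 51.8% of all genes had one. Among genes above the median of the table, it was 13 of 18 Clec genes, against 52.1%. The median log2 fold change of the family was -0.14, and that of all genes was -0.006. For each array, the median Clec deviation from the wildtype mean was 0.003, -0.063 and -0.021 in the Zcchc6+/+ and -0.114, -0.135 and -0.128 in the knockout arrays. Each Zcchc6-/- array thus had a lower family median than each Zcchc6+/+ array. Neighbouring members share a locus and part of their sequence and are not independent, so this received no test. Alveolar macrophage markers had a lower mean in 13 of 17 cases, with a median log2 fold change of -0.07. Their mean deviated by -0.034, -0.223 and -0.194 in the Zcchc6-/- and by -0.052, 0.049 and 0.003 in the Zcchc6+/+ arrays. Among them Fabp4, Krt79 and Itgax were lower (-1.17, -0.47 and -0.24) and Marco higher (0.43) without overlap, with adjusted p from 0.813 to 0.981 in limma. These are 3 lower and 1 higher of 17 markers, where 5.15% of all genes were lower and 5.03% higher without overlap. A lower mean in most members was thus also found in this marker set, and the part of these markers in the family median was not tested. The 14 genes below the median had log2 fold changes from -0.37 to 0.09, and 10 of them had a lower mean. The 95% intervals reached from 0.23 to 0.99 on either side of the log2 fold change, and those of 23 genes stayed under 0.5. These intervals are not adjusted for the number of genes, so a difference wider than them need not reach an adjusted p under 0.05. Clec1b, at -1.37, had an adjusted p of 0.610 in limma.

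**Figure D2:**
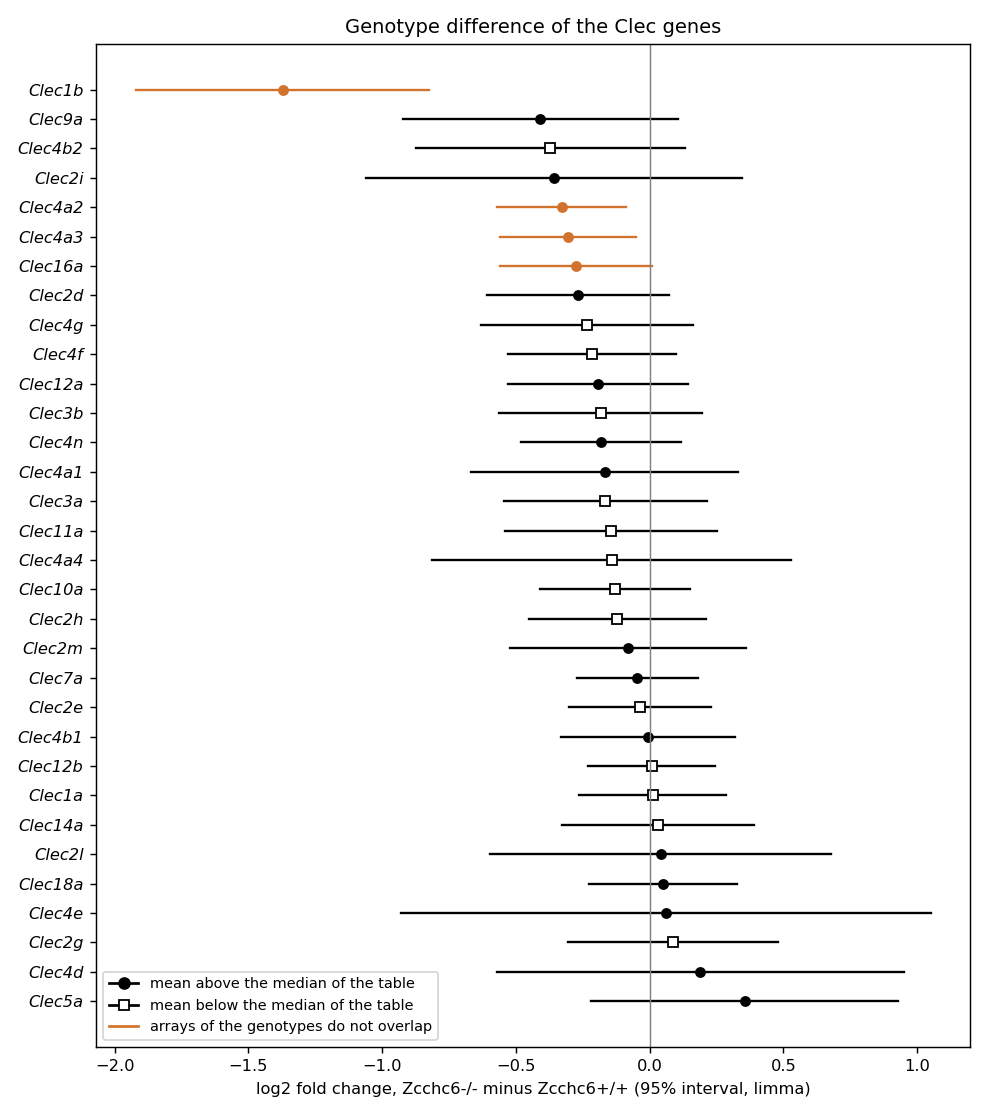
Log2 fold change, Zcchc6-/- minus Zcchc6+/+ (x axis, points with 95% intervals from limma), of the 32 Clec genes (y axis, sorted). Filled circles mark genes with a mean above the median of the table, open squares genes below it, and orange the 4 genes whose genotypes do not overlap. The point of Clec1b, at -1.37, lies to the left of all others. Its interval, from -1.92 to -0.82, overlaps those of other genes, Clec9a and Clec2i among them.

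Clec1b encodes CLEC-2, the hemITAM receptor for podoplanin, best known from platelets and also found on myeloid cells. It read 6.61, 5.96 and 6.10 in Zcchc6+/+ against 5.00, 4.42 and 5.13 in Zcchc6-/- macrophages. All 3 Zcchc6-/- arrays lay below all 3 wildtype arrays, with a gap wider than the spread inside either genotype. The log2 fold change was -1.37 (SE 0.23, 95% interval -1.92 to -0.82, limma adjusted p = 0.610), or 38.6% of the wildtype signal. Over the alternatives tried, its log2 fold change ranged from -1.51 to -0.96 and its adjusted p from 0.314 to 1. The difference was -2.19 between the 2 arrays of low Xist and -0.96 within the 4 arrays of high Xist, a grouping chosen after seeing the data. The direction was the same in both, and the sizes differed.

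Platelet markers were read for the same arrays, since CLEC-2 is abundant on platelets. Of 12 markers, 4 had a wildtype mean above the low-signal reference. Their mean level ranged from 3.84 to 4.02 in Zcchc6+/+ and from 3.74 to 3.91 in Zcchc6-/- arrays. Pf4, the platelet chemokine, read 3.01, 3.15 and 3.08 in Zcchc6+/+ against 2.81, 2.44 and 2.88 in Zcchc6-/- arrays, without overlap, at a signal below the reference in all of them. Ppbp, the other abundant platelet chemokine, was between 2.59 and 3.13 in all 6 arrays. Clec1b itself lay above the reference in all 6 arrays. The part of platelet RNA in the Clec1b difference was not tested. Podoplanin mRNA (Pdpn), the ligand, read 6.27, 5.77 and 5.73 in Zcchc6+/+ against 5.19, 5.79 and 5.43 in Zcchc6-/- arrays, with a log2 fold change of -0.45 (SE 0.20, limma adjusted p = 0.997) and overlapping genotypes.

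The start of Clec1b is shown because this gene had the largest difference of the family. The run holds 250 bases before and 50 after the RefSeq start at chr6:129397047-129397346 (GRCm38.p6, plus strand). Capitals mark both matches to TATAAA, which begin 195 and 87 bases before the start, the nearer one on the opposite strand. None of the other motifs searched was found in this window.
Clec1b: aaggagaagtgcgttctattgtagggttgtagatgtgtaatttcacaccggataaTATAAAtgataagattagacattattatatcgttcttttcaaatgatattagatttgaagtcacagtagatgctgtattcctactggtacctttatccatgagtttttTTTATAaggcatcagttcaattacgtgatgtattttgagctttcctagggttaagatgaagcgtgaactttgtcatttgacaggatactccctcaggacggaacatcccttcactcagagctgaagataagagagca

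The receptors related to Dcir, the dendritic cell immunoreceptor, lie beside each other on chromosome 6 and include inhibitory and other forms. Clec4a2, which encodes Dcir itself with its ITIM, read 6.17, 6.10 and 6.33 in Zcchc6+/+ against 5.86, 5.90 and 5.85 in Zcchc6-/- macrophages. The Zcchc6-/- arrays were tightly grouped below every wildtype array. The log2 fold change was -0.33 (SE 0.10, 95% interval -0.57 to -0.09, limma adjusted p = 0.902), or 79.6% of the wildtype signal. Clec4a3, a relative without the ITIM, read 9.87, 9.88 and 9.88 in Zcchc6+/+ against 9.62, 9.68 and 9.41 in Zcchc6-/- arrays. Its wildtype arrays hardly differed, and the Zcchc6-/- arrays all lay beneath them. The log2 fold change was -0.31 (SE 0.11, 95% interval -0.56 to -0.05, adjusted p = 0.973), or 80.9% of the wildtype signal. Within the 4 arrays of high Xist the differences were -0.36 for both genes, and between the 2 arrays of low Xist they were -0.27 for Clec4a2 and -0.19 for Clec4a3. Clec4a1 read 4.95, 5.10 and 5.46 in Zcchc6+/+ against 4.65, 5.39 and 4.96 in Zcchc6-/- arrays, which overlapped. Its log2 fold change was -0.17 (SE 0.21, 95% interval -0.67 to 0.33, limma adjusted p = 0.998), and it was 0.009 with Zcchc6-/- replicate 1 left out. Clec4a4, the other ITIM form of this group, was below the reference in all 6 arrays. The genes of this group are similar in sequence, and whether each probe set reads only its own gene was not examined.

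Clec4a2 is the second gene whose start is shown, since it was the ITIM receptor without overlap. Its window is chr6:123122440-123122739 (GRCm38.p6, plus strand). Capitals mark TATAAA beginning 161 bases before the start, GGAAGT, the core bound by PU.1 and related ETS factors, at 60 and again at 32 bases before it, and the AP-1 motif TGANTCA at 31 bases after it.
Clec4a2: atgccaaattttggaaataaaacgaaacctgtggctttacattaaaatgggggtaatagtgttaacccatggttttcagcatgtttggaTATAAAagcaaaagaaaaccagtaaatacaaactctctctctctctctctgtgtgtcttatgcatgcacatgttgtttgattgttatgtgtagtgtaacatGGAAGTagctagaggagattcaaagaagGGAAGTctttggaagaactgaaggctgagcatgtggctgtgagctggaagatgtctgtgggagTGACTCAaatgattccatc

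Both RefSeq starts of Clec4a3 lacked every motif searched, and the aligned windows of Clec4a2 and the first start of Clec4a3 were 51.8% identical. The median identity over the 325 pairs of Clec genes was 49.4%, and the highest was 79.6% for Clec2e and Clec2h.

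Clec12a, which encodes an ITIM receptor for uric acid crystals, read 7.97, 7.86 and 8.29 in Zcchc6+/+ against 7.68, 7.95 and 7.91 in Zcchc6-/- macrophages. The genotypes overlapped, with a log2 fold change of -0.19 (SE 0.14, limma adjusted p = 0.997). Leaving out Zcchc6+/+ replicate 3 gave -0.07, and leaving out Zcchc6-/- replicate 1 gave -0.11. Clec16a, the mitophagy gene, read 8.35, 8.09 and 8.15 in Zcchc6+/+ against 8.05, 7.92 and 7.78 in Zcchc6-/- arrays. The highest Zcchc6-/- array lay just under the lowest wildtype array. The log2 fold change was -0.28 (SE 0.12, 95% interval -0.56 to 0.007, adjusted p = 0.997), or 82.5% of the wildtype signal. It is the only member of the family on chromosome 16.

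The Dectin receptors of antifungal defence were close between genotypes. Clec7a read 10.90, 10.75 and 10.84 in Zcchc6-/- macrophages, interleaved with the wildtype values given above. The log2 fold change was -0.05 (SE 0.10, limma adjusted p = 0.998), and its 95% interval, -0.27 to 0.18, is the narrowest of the family. Clec4n read 9.73, 10.08 and 9.84 in Zcchc6-/- arrays, with a log2 fold change of -0.18 (SE 0.13, 95% interval -0.48 to 0.12, limma adjusted p = 0.997), and values of -0.11 with Zcchc6-/- replicate 1 left out and -0.28 with Zcchc6-/- replicate 2 left out. Clec4b1, the gene of DCAR, a receptor for mycobacterial lipids, read 5.43, 5.46 and 5.69 in Zcchc6+/+ against 5.58, 5.68 and 5.29 in Zcchc6-/- arrays. The genotypes overlapped, with a log2 fold change of -0.006 (SE 0.14, 95% interval -0.33 to 0.32, limma adjusted p = 0.999) that turned to 0.011 with array medians centred. A p that misses the threshold does not show that the genotypes were alike, and these intervals give the differences that the arrays leave possible.

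Clec4e and Clec4d varied more between arrays of 1 genotype than between genotypes. Clec4e encodes Mincle, a receptor for mycobacterial cord factor, and Clec4d encodes MCL, which pairs with it and helps to bring it to the cell surface. Clec4e read 9.01, 7.63 and 7.45 in Zcchc6+/+ against 7.73, 8.63 and 7.91 in Zcchc6-/- macrophages. Clec4d read 7.65, 6.94 and 6.32 in Zcchc6+/+ against 6.99, 7.53 and 6.95 in Zcchc6-/- macrophages. In both genes the first wildtype and the second Zcchc6-/- array were the highest of the 6. Their residual standard deviations, 0.69 for Clec4e and 0.52 for Clec4d, exceeded the median of 0.17 over all genes. The genotype differences were 0.06 for Clec4e (SE 0.42, 95% interval -0.93 to 1.05) and 0.19 for Clec4d (SE 0.33, 95% interval -0.57 to 0.95), with adjusted p = 0.999 and 0.998 from limma.

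The highest arrays of Clec4e and Clec4d were those of low Xist. Their mean exceeded that of the other 4 arrays by 1.14 for Clec4e, by 0.79 for Clec4d and by 0.23 for Clec4n, the gene beside them on the chromosome. Those 3 genes and Clec3a, whose signal was below the reference, had both low-Xist arrays above the other 4. In Clec4n this order held only narrowly, at 10.081 for the lower of the low-Xist arrays and 10.079 for the highest of the others. Over all genes 4.94% showed this order, against 4 of 32 Clec genes. The reverse order, with both arrays below the other 4, was found for Clec18a and Clec2m, where 6.05% of all genes had it. The grouping was made after the values had been seen, it has 2 arrays on the smaller side and it received no test. Ddx3y, a Y-linked gene, read 6.59 and 6.87 in the low-Xist arrays and 2.28 to 2.96 in the others. The part of sex in the Clec4e and Clec4d values was not tested.

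Clec5a, which encodes the Tyrobp-coupled receptor MDL-1, had the largest positive difference of the family. It read 7.54, 6.92 and 7.01 in Zcchc6+/+ against 7.06, 7.89 and 7.59 in Zcchc6-/- macrophages. The low-Xist array was the highest of its genotype on both sides, and the genotypes overlapped. The log2 fold change was 0.36 (SE 0.25, 95% interval -0.22 to 0.93, limma adjusted p = 0.997), with 0.17 when Zcchc6-/- replicate 2 was left out and 0.58 when Zcchc6-/- replicate 1 was. Mean deviations of 10 neutrophil markers from the wildtype mean were 0.020, 0.236 and 0.235 for Zcchc6-/- against -0.064, 0.044 and 0.020 for Zcchc6+/+. Of these markers 4 had a wildtype mean above the reference. Cxcr2, the receptor for neutrophil chemokines, read 5.94, 5.68 and 5.67 in Zcchc6+/+ against 6.05, 7.49 and 7.01 in Zcchc6-/- arrays, without overlap (log2 fold change 1.09, limma adjusted p = 0.902). Csf3r, the receptor for granulocyte colony-stimulating factor, read 7.30, 7.39 and 6.99 against 7.37, 8.19 and 7.99. Both were highest in Zcchc6-/- replicates 2 and 3, where Clec5a was highest too, while S100a8, S100a9 and Ly6g lay below the reference in all 6 arrays. Mmp8, also above the reference, went the other way, at 7.51, 8.12 and 8.57 against 7.27, 7.51 and 7.53 (log2 fold change -0.63, limma adjusted p = 0.981). Ltf, the remaining marker above the reference, read 4.20, 5.30 and 5.10 against 5.19, 6.80 and 4.76, with overlap. The part of neutrophils in the Clec5a values was not tested.

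**Figure D3:**
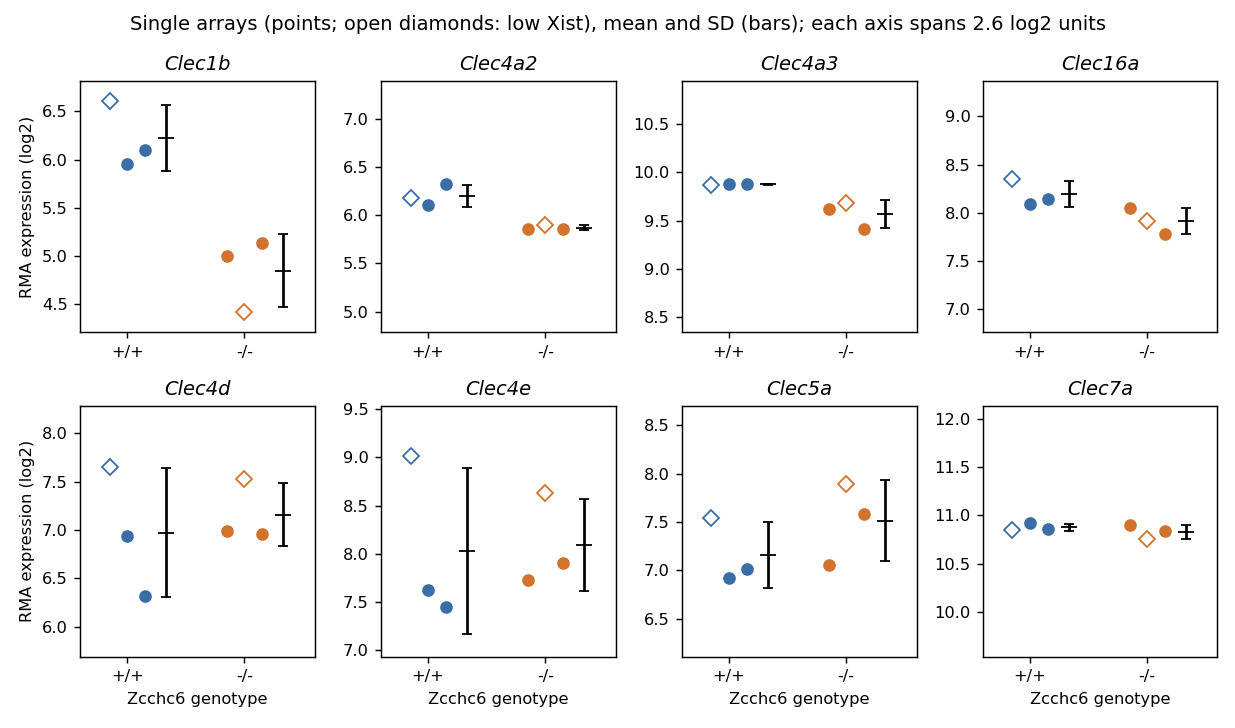
RMA log2 signal (y axis, each panel spanning the same number of log2 units) of 8 Clec genes in the 3 Zcchc6+/+ and 3 Zcchc6-/- arrays (x axis). Points are single arrays, open diamonds the arrays of low Xist, and bars the mean and SD of each genotype; the genotypes separate for Clec1b, Clec4a2, Clec4a3 and Clec16a, and the open diamonds are the highest points of each genotype for Clec4d, Clec4e and Clec5a.

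The other members above the median overlapped between genotypes. Clec2d read 9.76, 9.99 and 9.77 in Zcchc6+/+ against 9.85, 9.42 and 9.46 in Zcchc6-/- macrophages, with a log2 fold change of -0.27 (SE 0.15, limma adjusted p = 0.997). Clec2i, another ligand gene of NK receptors, read 4.50, 5.28 and 5.02 in Zcchc6+/+ against 5.19, 4.41 and 4.12 in Zcchc6-/- arrays, with a log2 fold change of -0.36 (SE 0.30, limma adjusted p = 0.997). Clec9a, which encodes the receptor with which dendritic cells sense actin of dead cells, read 4.86, 4.85 and 4.60 in Zcchc6+/+ against 4.78, 3.89 and 4.42 in Zcchc6-/- arrays, with a log2 fold change of -0.41 (SE 0.22, limma adjusted p = 0.997).

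In all 3 of these genes, Zcchc6-/- replicate 1, the array with T cell markers, was the highest of its genotype. Without that array the log2 fold changes were -0.41 for Clec2d, -0.67 for Clec2i and -0.62 for Clec9a, and all 3 were among the 8 Clec genes that then had an unadjusted p under 0.05. The differences were smaller when other arrays were left out, down to -0.19 for Clec2d and -0.17 for Clec9a without Zcchc6-/- replicate 2 and -0.13 for Clec2i without Zcchc6-/- replicate 3. Within the 4 arrays of high Xist they were -0.23 for Clec2d, -0.49 for Clec2i and -0.12 for Clec9a. All 13 T cell markers had a higher mean in Zcchc6-/- samples, 5 of 13 had a wildtype mean above the reference, and their mean level was 3.66 to 4.25 in Zcchc6+/+ and 3.77 to 6.94 in Zcchc6-/- arrays. Dendritic cell markers, of which 5 of 13 had a wildtype mean above the reference, had a mean level of 4.43 to 4.80 in Zcchc6+/+ and 4.53 to 4.73 in Zcchc6-/- arrays. Xcr1, which marks the dendritic cells known for Clec9a, read 3.99 to 4.29 in all 6 arrays, under the reference. The part of T cells or dendritic cells in these values was not tested.

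The last 3 members above the median lay close to it. Clec2m read 4.24, 4.90 and 4.39 in Zcchc6+/+ against 4.64, 4.26 and 4.38 in Zcchc6-/- arrays, with a log2 fold change of -0.08 (SE 0.19, limma adjusted p = 0.998). Clec2l read 4.87, 4.40 and 4.13 in Zcchc6+/+ against 4.05, 4.47 and 5.01 in Zcchc6-/- arrays, with a log2 fold change of 0.04 (SE 0.27, limma adjusted p = 0.999). Both overlapped widely, and the spread inside each genotype exceeded the difference between them. Clec18a, the gene of a secreted protein, read 4.78, 5.05 and 4.98 in Zcchc6+/+ against 4.94, 4.91 and 5.12 in Zcchc6-/- arrays, with a log2 fold change of 0.05 (SE 0.12, limma adjusted p = 0.998). The sign of all 3 turned when 1 array or another was left out.

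By place, 24 of the 32 genes lie on chromosome 6, 3 on chromosome 8 and 1 each on chromosomes 7, 9, 11, 12 and 16. The Dectin-2 group runs without another protein-coding gene in between as Clec4a1, Clec4a3, Clec4a4, Clec4b1, Clec4a2, Clec4b2, Clec4n, Clec4d and Clec4e in the RefSeq gene order of GRCm38.p6. Along this run, 7 of 9 genes had a lower mean in Zcchc6-/- macrophages, Clec4b1 among them only until array medians were centred, and Clec4d and Clec4e at its end had a higher one. The Dectin-1 group follows further along as Clec12a, Clec12b, Clec1b, Clec9a, Clec1a and Clec7a. There, Clec1b stood between Clec12b with a log2 fold change of 0.007 and Clec9a with -0.41, and Clec1a and Clec7a, further along, had 0.01 and -0.05. A difference as large as that of Clec1b was thus not read in the genes on either side. However, Clec12b and Clec1a lay below the low-signal reference in all 6 arrays, and Clec9a had a wildtype mean of only 4.77. Differences at low signal are understated, so these genes could show little of such a fall, and the comparison does not set Clec1b apart. In the RefSeq gene table the span given for Clec12b overlaps those of Clec1b, Clec9a and Clec1a, and whether their probes overlap was not examined. Clec12b read 2.37 to 2.59 in all 6 arrays.

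**Figure D4:**
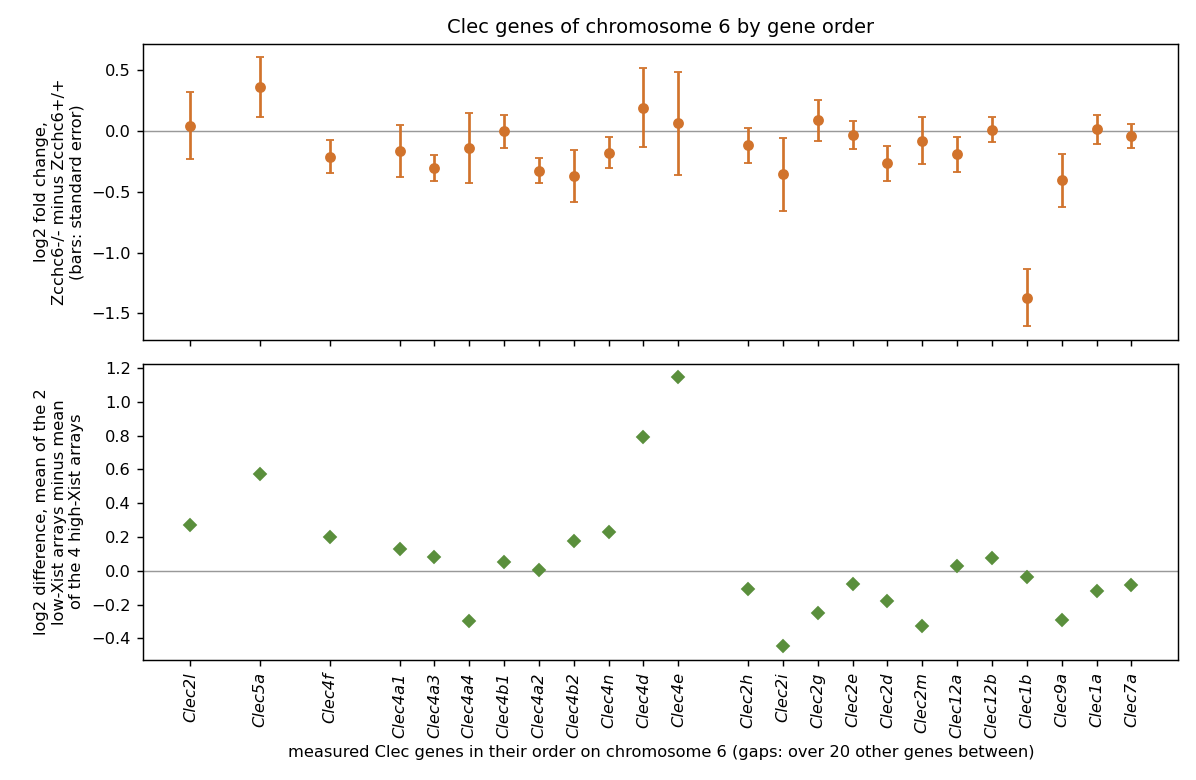
Clec genes of chromosome 6 in gene order (x axis), with the log2 fold change of Zcchc6-/- minus Zcchc6+/+ and its standard error (upper y axis) and the log2 difference between the mean of the 2 low-Xist and that of the 4 high-Xist arrays (lower y axis). In the upper panel Clec1b, at -1.37, is the lowest point, and in the lower panel Clec4d and Clec4e, at 0.79 and 1.14, end the Dectin-2 group.

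The starts of Clec4d and Clec4e are shown because these neighbours varied together between arrays. The window of Clec4d is chr6:123261857-123262156 (GRCm38.p6, plus strand), and that of Clec4e is chr6:123289822-123290121 (GRCm38.p6, minus strand). In Clec4d, capitals mark GGAAGT at 35 bases before the start and the interferon response motif GAAANNGAA, read on the opposite strand, at 1 base after it. In Clec4e they mark the C/EBP motif TTGCNNAA, also read on the opposite strand, at 66 bases and TATAAA at 29 bases before the start. The windows share no motif of those searched and were 49.2% identical.
Clec4d: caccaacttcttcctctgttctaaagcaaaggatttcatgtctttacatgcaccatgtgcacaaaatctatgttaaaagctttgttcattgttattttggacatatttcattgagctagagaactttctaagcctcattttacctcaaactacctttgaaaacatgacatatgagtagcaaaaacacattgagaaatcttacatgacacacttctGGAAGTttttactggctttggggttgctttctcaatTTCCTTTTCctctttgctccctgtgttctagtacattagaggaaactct
Clec4e: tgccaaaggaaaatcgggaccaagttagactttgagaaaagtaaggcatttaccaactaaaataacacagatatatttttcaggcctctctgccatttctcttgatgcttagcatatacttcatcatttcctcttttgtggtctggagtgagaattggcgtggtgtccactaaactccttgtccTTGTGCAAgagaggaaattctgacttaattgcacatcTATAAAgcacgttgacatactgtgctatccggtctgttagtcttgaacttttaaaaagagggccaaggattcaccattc

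RefSeq windows were found for 26 of the 32 genes, with 29 starts, and set against all 32851 windows of the same length, both strands searched. TATAAA was present in 27.6% of the Clec windows and 13.6% of all windows. The interferon response motif GAAANNGAA was present in 24.1% against 8.56%, and TTGCNNAA in 20.7% against 10.8%. The AP-1 motif TGANTCA was present in 20.7% against 7.81%. The ETS core GGAAGT was present in 17.2% against 23.8%, and the E-box CACGTG, bound by Mitf and Tfeb, in 0% against 7.15%. Several Clec genes arose by duplication, so their windows are related, and a match of letters is not a binding site. The base composition of the windows was not matched. Both Clec2i windows, which overlap almost fully, hold the same TTGCNNAA match and were counted separately. Of the 4 genes without overlap between genotypes, Clec16a held the C/EBP motif and Clec4a3 none of the motifs, so no motif was common to all 4.

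The signalling genes behind these receptors were taken from a list of 26 genes of the Syk and Card9 route, of which 0 had an adjusted p under 0.05. A lower mean was found for 14 and a higher mean for 12 of them, with a median log2 fold change of -0.02. Syk read 9.32, 9.32 and 9.08 in Zcchc6+/+ against 9.53, 9.18 and 9.23 in Zcchc6-/- arrays, with a log2 fold change of 0.07 (SE 0.13), and that of Card9 was 0.06 (SE 0.10). The adaptor Tyrobp had -0.06 (SE 0.11). Fcer1g, the adaptor of Dectin-2, Mincle and MCL, read 11.38, 11.47 and 11.44 in Zcchc6+/+ against 11.24, 11.24 and 11.29 in Zcchc6-/- arrays. It did not overlap, and its log2 fold change was -0.18 (SE 0.09, limma adjusted p = 0.997). Malt1, the paracaspase of the Card9 complex, had 0.30 (SE 0.10, adjusted p = 0.951) without overlap. The exchange factors Vav1 and Vav3, which act below Syk, had 0.21 and -0.35 (SE 0.09 and 0.13), both without overlap and in opposite directions. Fcer1g, Malt1, Vav1 and Vav3 had the smallest p of the list. Of the 26 genes, 3 were lower and 2 higher without overlap, against 5.15% and 5.03% of all genes.

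On the inhibitory side, 9 genes of ITIM phosphatases and other brakes had a median log2 fold change of 0.04, with 3 lower and 6 higher means and 0 adjusted p under 0.05. Dok2, an adaptor that restrains Ras signalling, read 8.03, 7.92 and 7.90 in Zcchc6+/+ against 7.67, 7.70 and 7.48 in Zcchc6-/- arrays. It had a log2 fold change of -0.33 (SE 0.11, limma adjusted p = 0.909) and was the only gene of the 9 without overlap. Over all genes, 5.15% were lower and 5.03% higher without overlap. The ubiquitin ligases Cbl and Cblb had 0.13 and -0.06, and the phosphatase Ptpn11 (SHP-2) had 0.08, all with overlap. Among 9 genes of binding partners, with a median of 0.009 and 0 adjusted p under 0.05, Pdpn is described with Clec1b. Klrb1a, an NK receptor of the family that binds Clec2 proteins, and Mmrn2, which binds Clec14a, had 0.31 and 0.11, at signals below the reference in all 6 arrays.

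Lectin domain genes without a Clec symbol gave a comparison with the family. Of 74 such genes, 72 were measured, 42 with a lower and 30 with a higher mean in Zcchc6-/- macrophages and 0 with an adjusted p under 0.05. Their median log2 fold change was -0.05, and 4 of the 72 had an unadjusted p under 0.05, all with a lower mean, where 2.53% of all genes had such a p with a lower and 2.5% with a higher mean. Cd93, a receptor with a lectin-like domain that is related to Clec14a, read 6.67, 6.81 and 6.77 in Zcchc6+/+ against 6.51, 6.38 and 6.45 in Zcchc6-/- arrays, with a log2 fold change of -0.31 (SE 0.10, limma adjusted p = 0.909). The secreted lectins Reg3d, Reg3a and Reg1 had -0.44, -0.30 and -0.35, at signals of 2.48 and below.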

How the data were processed

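Total RNA of alveolar macrophages was hybridised to Affymetrix Mouse Gene 2.0 ST arrays. The authors deposited log2 values made with RMA in affy 1.36.1 (R 2.15.1), which corrects background, normalises the arrays to 1 distribution and gives 1 value per Entrez Gene over its probes. A shift shared by most genes is thereby removed, and differences at low signal are understated. The values hold no detection call. Symbols were found for 23740 of 25206 genes, and 1466 were tested without one. Families and neighbours were read from RefSeq GRCm38.p6.

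Every gene was compared between 3 Zcchc6-/- and 3 Zcchc6+/+ arrays with limma 3.58.1 in R 4.3.3 (lmFit and eBayes, no covariate and no filter, 4 residual and 3.47 prior degrees of freedom), with p-values adjusted over the whole table by the Benjamini-Hochberg method, and called at an adjusted p under 0.05. The fit was tested on simulated data. Members received full values where the genotypes did not overlap, the unadjusted p was under 0.05 or the mean lay above the median of the table, and each list was represented by the 4 genes with the smallest p plus Syk, Card9, Fcer1g and Tyrobp. A gene that this rule names in the list of binding partners is not reported here. The members and lists were chosen with earlier results of these data known. Promoter windows came from RefSeq GRCm38.p6 and were aligned with Biopython 1.88. Protein sequences were not used here. The precision is limited by the number of arrays. Alternatives were a filter on low values, other variance priors, array weights, other scalings, a replicate block, Xist as a covariate, each array left out and, chosen after seeing the data, the 4 arrays of high Xist alone.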

Additional observations from a re-analysis of the deposited data

How the results depend on the processing

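In none of the 16 alternatives did a Clec gene or a gene of the pathway lists have an adjusted p under 0.05. Over all genes, 0 to 1 did, the 1 without Zcchc6-/- replicate 1. The count of Clec genes at an unadjusted p under 0.05, 3 as reported, was 6 with array weights, 1 within the 4 arrays of high Xist and 1 to 8 with each array left out. Over the whole table, 850 genes were lower and 896 higher at this p with array weights, and 579 and 662 within the arrays of high Xist. The median log2 fold change of the Clec genes was -0.175 for those above the median of the table and -0.163 to -0.092 with each array left out. Of the Clec genes, 21 to 26 had a lower mean. The median of the ITIM phosphatases and brakes was -0.014 within the arrays of high Xist and -0.018 to 0.063 with each array left out, and that of the binding partners was -0.108 for genes above the median and -0.194 to 0.043 with each array left out. The direction turned for Clec4b1 with array medians centred (0.011) and for Clec4e with array weights (-0.055). It also turned with 1 array or another left out for Clec18a (-0.029 to 0.108), Clec2l (-0.208 to 0.271), Clec2m (-0.214 to 0.113), Clec4a1 (-0.364 to 0.009), Clec4b1 (-0.089 to 0.107), Clec4d (-0.136 to 0.530), Clec4e (-0.228 to 0.552) and Syk (-0.038 to 0.140). The cause was not tested. With array medians centred, 508 genes were lower and 734 higher at an unadjusted p under 0.05, against 638 and 630 as reported. Deviations of arrays with the same replicate number correlated at 0.090, -0.231 and 0.046, inside the range of the other pairs, -0.257 to 0.262. Whether samples of the same number were paired cannot be told from these values, and the labels do not say. With the replicate block, 3 Clec genes had an unadjusted p under 0.05 and 0 an adjusted one. With 3 arrays per genotype and signals of 14 Clec genes at or under the low-signal reference, a count of 0 does not show that the genotypes were alike.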
